A study of Mus musculus with 37 samples.

Results

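The genes described here are 10 members of the Notch pathway: the receptors Notch1, Notch2 and Notch3, the ligands Jag1, Dll1 and Dll3, the DNA-binding factor Rbpj, and the target genes Hes1, Hes5 and Hey1. All probe sets annotated to 1 of these genes alone were taken, which gave 18 of the 45101 probe sets of the array and 10 of the 18194 genes it names. They were followed over 37 arrays of astrocytes in primary culture, made from newborn 129S4/SvJae (129) and C57BL/6J (B6) mice of each sex, grown in serum-containing medium and nucleofected with pcDNA3.1-hygro, either empty (vector) or carrying CDCA7L (Cdca7l). Vector and Cdca7l arrays numbered 4 and 4 for 129 females, 5 and 5 for 129 males, 5 and 4 for B6 females, and 5 and 5 for B6 males, and each array carries a clone label such as 4(1). Of the 22 clone labels, 15 occur with both plasmids in 1 strain and sex, so arrays of such a pair may share their source cells, while the tests below treat each array as independent. The p-values measure the spread between arrays. Arrays that share a clone label were correlated (consensus 0.409), so p-values for strain and sex may be too small.

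Notch receptors are cut after a ligand on a neighbouring cell binds them, and the freed intracellular part enters the nucleus. There it joins RBPJ, which represses its targets without that partner and activates them with it. HES1, HES5 and HEY1 are repressors encoded by such targets, and they hold back neuronal differentiation in neural progenitors and in cells that become astrocytes.

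RBPJ binds the core letters TGGGAA, so the stretch of 250 bases before the annotated start was searched for TGGGAA and its reverse complement TTCCCA, which are in capitals below. RefSeq promoters of GRCm38.p6 were at hand for 8 of the 10 genes (10 promoters), and 3 of these 10 held the core, against 21.6% of all 32851 promoters. Those 3 belong to 2 of the 8 genes, Hes5 and Rbpj, since both Rbpj promoters overlap and share a core. Those of 3 genes are shown 5′ to 3′ on the strand of the gene: Hes5 as a target with a core on each strand, Notch3 as the receptor that differed most between groups, and Rbpj as the factor that reads the core.
Hes5: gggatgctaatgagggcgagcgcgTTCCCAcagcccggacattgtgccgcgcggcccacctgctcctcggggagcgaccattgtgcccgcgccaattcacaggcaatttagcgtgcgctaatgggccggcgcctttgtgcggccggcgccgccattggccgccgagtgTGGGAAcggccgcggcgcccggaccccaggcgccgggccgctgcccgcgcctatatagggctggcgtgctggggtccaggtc
Notch3: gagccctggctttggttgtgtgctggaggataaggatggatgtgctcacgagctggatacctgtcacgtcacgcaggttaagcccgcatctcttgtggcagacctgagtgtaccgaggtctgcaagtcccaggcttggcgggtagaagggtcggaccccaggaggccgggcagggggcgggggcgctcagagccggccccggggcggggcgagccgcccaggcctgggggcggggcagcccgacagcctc
Rbpj: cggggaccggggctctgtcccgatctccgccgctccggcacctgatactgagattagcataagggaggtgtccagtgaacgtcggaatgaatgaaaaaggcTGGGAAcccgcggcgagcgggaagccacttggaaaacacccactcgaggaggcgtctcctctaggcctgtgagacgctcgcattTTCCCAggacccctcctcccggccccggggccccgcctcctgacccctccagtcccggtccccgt
The Hes5 sequence lies at chr4:154960673-154960922 on the + strand, that of Notch3 at chr17:32166891-32167140 on the − strand, and that of Rbpj at chr5:53590096-53590345 on the + strand. The cores of Hes5 begin at positions -226 and -82 from the start, and each lies within the longer word GTGGGAA or its reverse complement. That longer word was found in 5.42% of all promoters, and at 2 or more positions in 0.161%. Rbpj held the core at -149 and -65 with no longer word, and the Notch3 stretch held none. A match describes the letters alone.

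Values are log2 expression values, and 1 unit is a doubling. The median of the whole table, 3.19, served as background, and levels of different probe sets are not compared, since their probes differ. All 10 astrocyte markers exceeded background on some array, with Gfap between 10.02 and 13.97 and Gja1 between 13.48 and 14.37. Some markers of other cells did so too: 7 of 10 neuron genes exceeded background on some array, as did 5 of 10 endothelial and 9 of 10 fibroblast and meningeal genes. So did 9 of 12 microglia, 7 of 9 oligodendrocyte and 9 of 10 ependymal and choroid genes. The mean of the microglia genes reached 7.51 in 129 males with vector and 6.16 in B6 females with vector. That of the endothelial genes had group medians from 2.15 to 2.52, below background. Rbfox3 of neurons and Pecam1 and Cdh5 of endothelium were at background on all 37 arrays. Cdca7l itself lay between 10.15 and 14.42 with its plasmid and between 4.12 and 10.43 with the vector, with no overlap within any strain and sex. A pair of arrays stood apart. On B6 female vector 5.1(1) Xist was at 2.40, where the other 16 female arrays had 10.71 to 12.20 and male arrays at most 2.5. On 129 female vector 1(3) the upper quartile of all values was 8.36, where the other 36 arrays had 9.03 to 9.51. Both were kept under their labels, the former as female. Strain and sex calls of the 10 genes are also given without them, and those of other pathway genes are not.

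In these cultures the 3 receptors, Jag1, Hey1 and Rbpj were above background on every array by at least 1 probe set, and Hes1 on 31 of 37. Hes5 was above background on 16 arrays, and Dll1, a ligand of the Delta type, on 2 arrays, at 4.21 with Cdca7l and 3.19 with vector, both from the 129 female clone 2(3). Dll3, a Delta-type protein that inhibits Notch from within the cell, was at background on all 37, between 2.25 and 2.39. The second probe set of Notch2 and the third of Jag1 were also at background throughout. In all, 13 probe sets of 8 genes exceeded background on 4 or more arrays and were tested. In RNA from whole cultures, fewer cells of a type and less RNA per cell cannot be told apart.

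No Notch gene passed the test for a difference between Cdca7l and vector. In the comparison of Cdca7l with vector averaged over strain and sex, 0 of the 13 probe sets passed (limma, adjusted p under 0.05), 0 had an unadjusted p under 0.05, and 0.00782% of all 25579 tested probe sets passed. The narrowest intervals were those of Notch2, at 0.15 ± 0.102 (SE, log2, 95% interval -0.05 to 0.36), and of Jag1 by 1434070_at, at -0.05 ± 0.116 (-0.28 to 0.19). For Hey1 the difference was -0.01 ± 0.182 (-0.38 to 0.36), and for Rbpj by 1454896_at 0.24 ± 0.130 (-0.03 to 0.50). The target genes Hes1 (-0.09 ± 0.543, -1.19 to 1.02) and Hes5 (0.81 ± 0.612, -0.44 to 2.05) had intervals wide enough to hold changes of more than 2-fold. The adjusted p was 0.999 for each of the 13, and 9 of them were higher with Cdca7l, with a median of 0.16 beside 0.02 over all tested probe sets.

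Taken within each strain and sex, 0 of 13 passed in 129 females, 129 males, B6 females and B6 males, where the share over all tested probe sets was likewise 0%. At an unadjusted p under 0.05 limma gave 1 member in 129 females, Notch3 by 1421964_at with a difference of 1.81, 1 in 129 males, Hes5 with 2.53, and 0 in either B6 group. Members whose response to Cdca7l differed by sex or by strain numbered 0 of 13 in each interaction, against 0% of all probe sets, and none had an unadjusted p under 0.05. Among the 15 clone labels with both plasmids, Notch3 by 1421965_s_at was higher with Cdca7l in 7, Jag1 by 1434070_at in 7, Hes1 in 9, Hey1 in 10 and Rbpj by 1454896_at in 10. Over the 13 probe sets the counts ran from 7 to 11, the highest being that of Rbpj by 1418114_at. Adding a replicate block for the clone label, fixed or random, also left 0 members past the threshold.

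**Figure D1:**
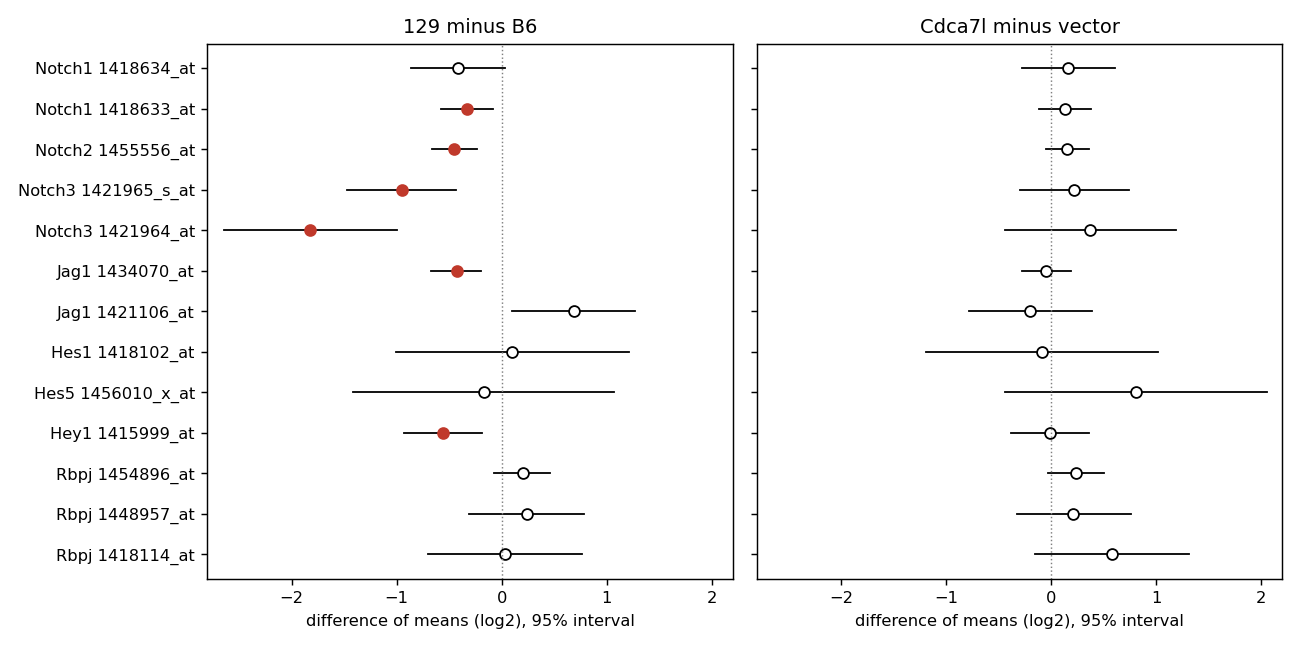
Differences of group means (log2, points) with 95% intervals (lines) for the 13 tested probe sets, 129 minus B6 on the left and Cdca7l minus vector on the right, each averaged over the other factors. Filled red points passed at an adjusted p under 0.05: 6 on the left, all below 0, and 0 on the right.

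Most calls among the Notch genes were along strain. Averaged over sex and plasmid, 6 of the 13 probe sets, from 5 genes, passed, and all 6 were lower in 129: Notch3 by both probe sets, Notch2, Jag1, Hey1 and Notch1. Over all tested probe sets 25.2% passed and 14.6% passed as lower in 129, so a strain difference in itself was common on these arrays. Fitted in vector arrays alone, where 8.69% of all probe sets passed, 2 members did so, and in Cdca7l arrays alone, where 5.21% passed, 0 did. The median difference of the 13 was -0.33, beside 0.00 over all. Rbpj, Hes1 and Hes5 did not pass by any probe set.

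Notch3, the receptor best known from mural cells of vessels and also carried by neural progenitors and astrocytes, showed the largest of these differences. By 1421965_s_at the mean was 10.66 ± 1.24 (SD, n = 18) in 129 and 11.54 ± 0.212 (SD, n = 19) in B6. The fitted difference was -0.95 ± 0.254 (SE), a 1.94-fold lower level (limma adjusted p = 0.00664). The second probe set, 1421964_at, gave -1.82 ± 0.400, or 3.53-fold lower (limma adjusted p = 0.00137), and both probe sets rose and fell together over the arrays (r = 0.895, n = 37, as a description).

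The 129 arrays of Notch3 were not low throughout. By 1421965_s_at, 129 females with Cdca7l had 8.39 in clone 4(1), 9.75 in 2(1), 11.13 in 2(3) and 11.87 in 1(3). With vector the same clones had 7.19, 9.59, 11.27 and 10.07 in that order. Clones 4(1) and 2(1) were thus lower than every other array of the series with either plasmid, while 1(3) with Cdca7l, at 11.87, was the highest array of the series and 2(3) lay inside the range of 129 males. In 129 males the values were 11.62, 10.99, 11.60, 10.89 and 11.41 with Cdca7l and 10.55, 11.30, 11.28, 11.49 and 11.43 with vector. B6 females had 11.24, 11.36, 11.76 and 11.79 with Cdca7l and 11.72, 11.46, 11.69, 11.53 and 11.18 with vector. B6 males had 11.80, 11.44, 11.21, 11.65 and 11.68 with Cdca7l and 11.85, 11.59, 11.33, 11.56 and 11.38 with vector. These 3 strain and sex groups overlapped with one another, and 6 of the 8 arrays of 129 females fell below the lowest B6 female.

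By 1421964_at, 129 females with Cdca7l had 5.27 in clone 4(1), 5.91 in 2(1), 9.22 in 2(3) and 10.41 in 1(3), and with vector 3.88, 6.87, 8.73 and 4.08 in that order. The low vector value of clone 1(3), against 10.41 with Cdca7l, is from the array with the low upper quartile. The other groups ranged from 8.76 to 10.10 in 129 males, from 9.30 to 10.70 in B6 females and from 7.83 to 10.82 in B6 males. The 129 female mean was 6.80 ± 2.44 (SD, n = 8), and the other 3 means lay between 9.63 and 10.05.

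**Figure D2:**
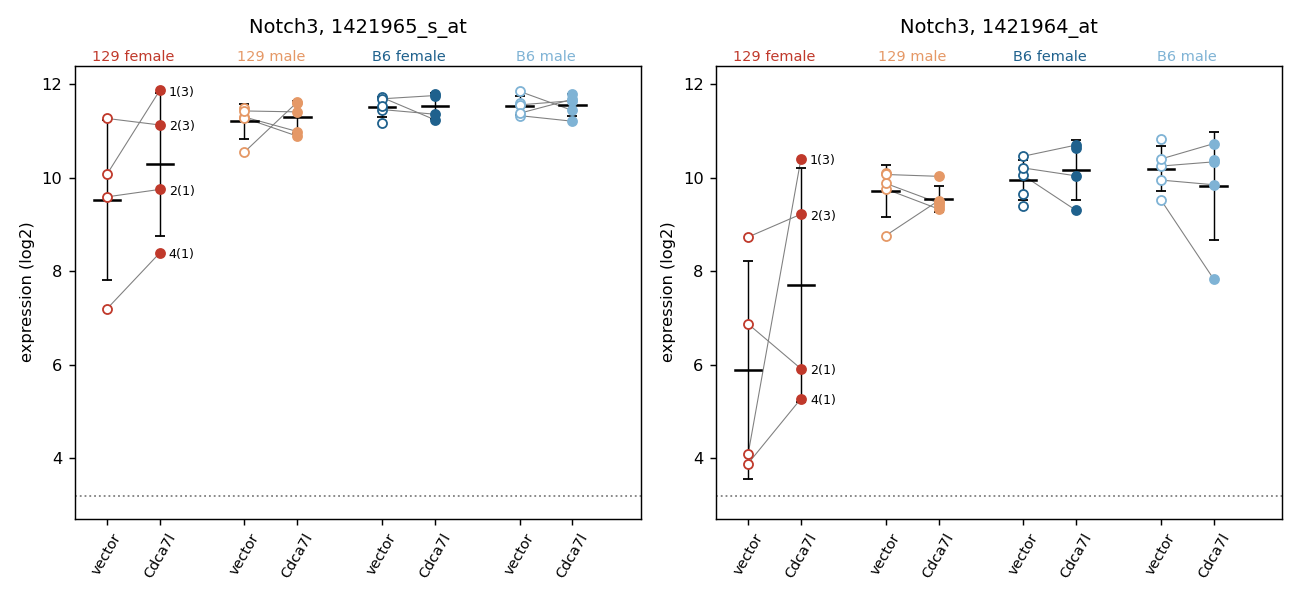
Notch3 expression (log2) by the probe sets 1421965_s_at and 1421964_at on each of the 37 arrays, open points for vector and filled for Cdca7l, with grey lines joining arrays of 1 clone label, black bars for group means and whiskers for 1 SD. The dotted line is the background of 3.19, and clone labels are written for the 129 females, whose clones 4(1) and 2(1) lie below all other groups in the left panel.

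Within females, Notch3 was 9.59-fold lower in 129 than in B6 at 1421964_at, a difference of -3.26 ± 0.590 (SE, limma adjusted p = 0.000328). At 1421965_s_at it was -1.62 ± 0.374, 3.07-fold (limma adjusted p = 0.00387). That call was lost when only the groups compared were fitted (adjusted p = 0.0713), and without both arrays of 129 female clone 4(1) the difference was -0.91 (adjusted p = 0.0194). In males the same differences were -0.38 ± 0.541 and -0.29 ± 0.343 and did not pass. The fit used 1 spread for all groups. The SD at 1421965_s_at was 1.56 in 129 females, 0.345 in 129 males, 0.231 in B6 females and 0.206 in B6 males. The SEs given for Notch3 may thus be too small where 129 females enter and too large elsewhere. In females 3 of the 13 members passed, the third being Notch2, where 17.6% of all probe sets passed and 12% as lower. In males 0 of 13 passed (limma, 2 at an unadjusted p under 0.05), against 10.5% of all.

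Read along sex, Notch3 was lower in females than in males of the 129 strain, with differences of -2.83 ± 0.574 at 1421964_at (7.11-fold, limma adjusted p = 0.00509) and -1.35 ± 0.364 at 1421965_s_at (2.54-fold, limma adjusted p = 0.0233). Those were 2 of 13 members, against 8.77% of all probe sets and 6.06% counted as lower alone. The call at 1421965_s_at was lost without 129 female Cdca7l 4(1) (-1.03, adjusted p = 0.0802), without 129 female Cdca7l 2(1) (-1.26, 0.0675) and without 129 female vector 4(1) (-0.96, 0.0570). With both arrays of clone 4(1) left out it was -0.64 (adjusted p = 0.134), without both of 129 female 2(1) -1.27 (0.0789), and without both of 129 male 5(1) -1.39 (0.0505), and a random replicate block for the clone gave an adjusted p of 0.0734. At 1421964_at the call survived the removal of any 1 array or clone label. Labels that share the number before the parentheses were not left out together.

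In B6 the sexes differed by 0.05 ± 0.558 and -0.02 ± 0.353 at the same probe sets, and 0 of 13 members passed (limma, 0 at an unadjusted p under 0.05), where 0.0352% of all did. Averaged over strain, 0 of 13 members differed by sex (3 at an unadjusted p under 0.05), against 0.321% of all. The test of whether the strain difference depended on sex gave -2.88 ± 0.801 for Notch3 at 1421964_at (limma adjusted p = 0.135) and -1.32 ± 0.507 at 1421965_s_at (adjusted p = 0.227). It passed for 0 of 13 members (2 at an unadjusted p under 0.05) and 0% of all probe sets. Without 129 female Cdca7l 1(3), the interaction at 1421964_at was -3.33 with adjusted p = 0.0230, and it also passed without both arrays of 2(3) (-3.61, 0.0264) or of 1(3) (-3.03, 0.0275). The sex difference averaged over strain likewise passed without 129 female Cdca7l 1(3) (-1.61, 0.0175 at 1421964_at and -0.82, 0.0489 at 1421965_s_at) and, at 1421964_at, without 129 female vector 2(3) (-1.63, 0.0311).

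The 129 female clones 4(1) and 2(1), low in Notch3 at both probe sets, also had other marker levels than the rest. The mean of the 10 astrocyte markers, among them Gfap, Aqp4 and Slc1a3, was 9.20 and 8.75 in 129 female clone 4(1) (Cdca7l and vector) and 10.14 and 10.15 in clone 2(1). All other arrays lay between 10.74 and 12.59. Proliferation genes averaged 11.52 and 11.56 in clone 4(1) and 10.58 and 10.78 in clone 2(1), where no other array exceeded 9.10. The array 129 female vector 1(3), also low in Notch3 by 1421964_at, had 11.92 for astrocyte markers and 5.53 for proliferation genes. Of the 10 mural-cell markers, 6 exceeded background on some array: Acta2 (12.65 to 14.60), Tagln (12.33 to 14.40), Pdgfrb (9.76 to 13) and Cnn1 (4.44 to 11.52) did so on all 37, Rgs5 on 29 and Cspg4 on 1. Myh11, Des, Kcnj8 and Abcc9 were at background on every array. Of the 5 tested, Rgs5 alone passed along strain and was lower in 129 (-2.11 ± 0.538, limma adjusted p = 0.00492). Whether these levels account for the Notch3 values was not tested.

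Without the arrays 129 female vector 1(3) and B6 female vector 5.1(1), the strain differences of Notch3 were -1.70 (adjusted p = 0.0030) at 1421964_at and -1.0 (0.00741) at 1421965_s_at. In females alone they were -3.03 and -1.70, and both still passed. Averaged over sex, Notch2 (-0.42, limma adjusted p = 0.00452), Jag1 by 1434070_at (-0.40, 0.00905) and Hey1 (-0.57, 0.0291) still passed. Notch2 did so in females too (-0.56, 0.0173). Notch1 by 1418633_at, averaged over sex, no longer passed (-0.33, adjusted p = 0.0538). For Notch3 the difference between 129 females and males was -2.53 (adjusted p = 0.0123) at 1421964_at and -1.44 (0.0252) at 1421965_s_at.

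**Figure D3:**
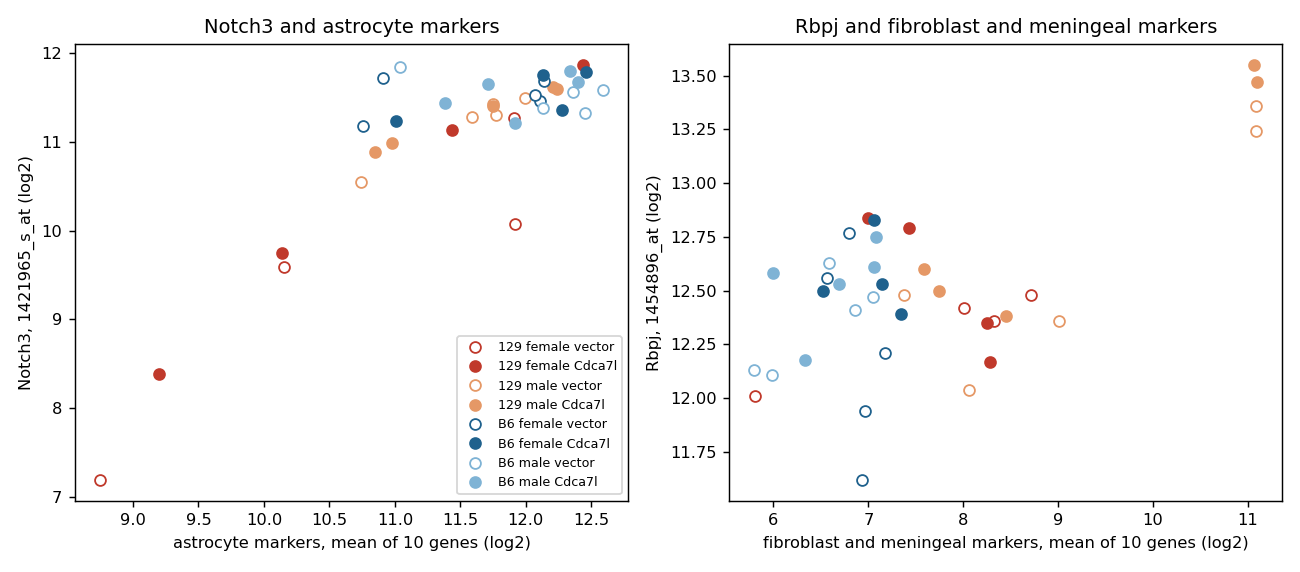
Left, Notch3 by 1421965_s_at against the mean of the 10 astrocyte markers; right, Rbpj by 1454896_at against the mean of the 10 fibroblast and meningeal markers, both axes in log2 and 1 point per array (37), coloured by strain and sex, open for vector and filled for Cdca7l. On the left the 4 arrays of 129 female clones 4(1) and 2(1) lie at the lower left, and on the right the 4 arrays of 129 male clones 3(1) and 5(1) lie apart at the upper right.

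Notch2, a receptor widely present in glial cells, differed less than Notch3. Its lowest, median and highest values were 12.30, 12.81 and 13.42 in 129 females and 12.35, 13.23 and 13.56 in 129 males. In B6 they were 13.14, 13.42 and 13.64 in females and 12.84, 13.51 and 13.74 in males. The strain difference was -0.45 ± 0.102 (SE), 1.37-fold (limma adjusted p = 0.00173), and 16 of the 18 arrays of 129 lay below the B6 median. In females it was -0.63 ± 0.150 (limma adjusted p = 0.00486), with 7 of 8 arrays of 129 below the lowest B6 female. In males it was -0.27 ± 0.138 and did not pass (limma adjusted p = 0.22), with 1 of 10 arrays of 129 below the lowest B6 male. Centring each array on its own median left -0.38 in females (adjusted p = 0.119), and the averaged call survived the removal of any 1 array or clone label (adjusted p 0.000366 to 0.00716).

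Notch1, the receptor most studied in neural progenitors, passed by 1 of its 2 probe sets. At 1418633_at it was 8.20 ± 0.351 (SD, n = 18) in 129 and 8.51 ± 0.350 (SD, n = 19) in B6, with a fitted difference of -0.33 ± 0.122 (SE, 1.26-fold, limma adjusted p = 0.0467). The call was lost in 23 of 37 fits that each left out 1 array, and with a random replicate block (0.0942). At 1418634_at the difference was -0.42 ± 0.219 (limma adjusted p = 0.157). The groups overlapped widely at both.

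The ligand Jag1 gave opposite signs at its probe sets. At 1434070_at the lowest, median and highest values were 11.26, 12.05 and 12.28 in 129 females and 11.21, 11.91 and 12.53 in 129 males. In B6 they were 12.05, 12.46 and 12.81 in females and 12.12, 12.49 and 12.82 in males, so 10 of 18 arrays of 129 lay below every B6 array. The difference was -0.43 ± 0.116 (SE), 1.35-fold (limma adjusted p = 0.00711). At 1421106_at the difference was 0.69 ± 0.286 (limma adjusted p = 0.0742) and did not pass; 5 of the 129 arrays lay above all of B6 and 1, the array 129 female vector 1(3) at 6.85, below all of it. Probe sequences were not used here, so whether a sequence difference between the strains lies under a probe was not tested.

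Rbpj did not pass by strain at any of its 3 probe sets (0.20 ± 0.130, 0.24 ± 0.268 and 0.03 ± 0.357, limma adjusted p from 0.268 to 0.959), yet 4 arrays stood out. At 1454896_at, 129 male clones 3(1) and 5(1) had 13.55 and 13.47 with Cdca7l and 13.36 and 13.24 with vector. The other 33 arrays lay between 11.62 and 12.84. These clones were also the highest of the series at 1448957_at (11.62 and 11.90 with Cdca7l, 11.03 and 11.27 with vector) and at 1418114_at (11.19 and 11.59, 10.67 and 10.76). The same 4 arrays had means of the fibroblast and meningeal markers, such as Col1a1 and Dcn, of 11.07 to 11.10, and no other array exceeded 9.01. The part of that in the Rbpj values was not tested.

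**Figure D4:**
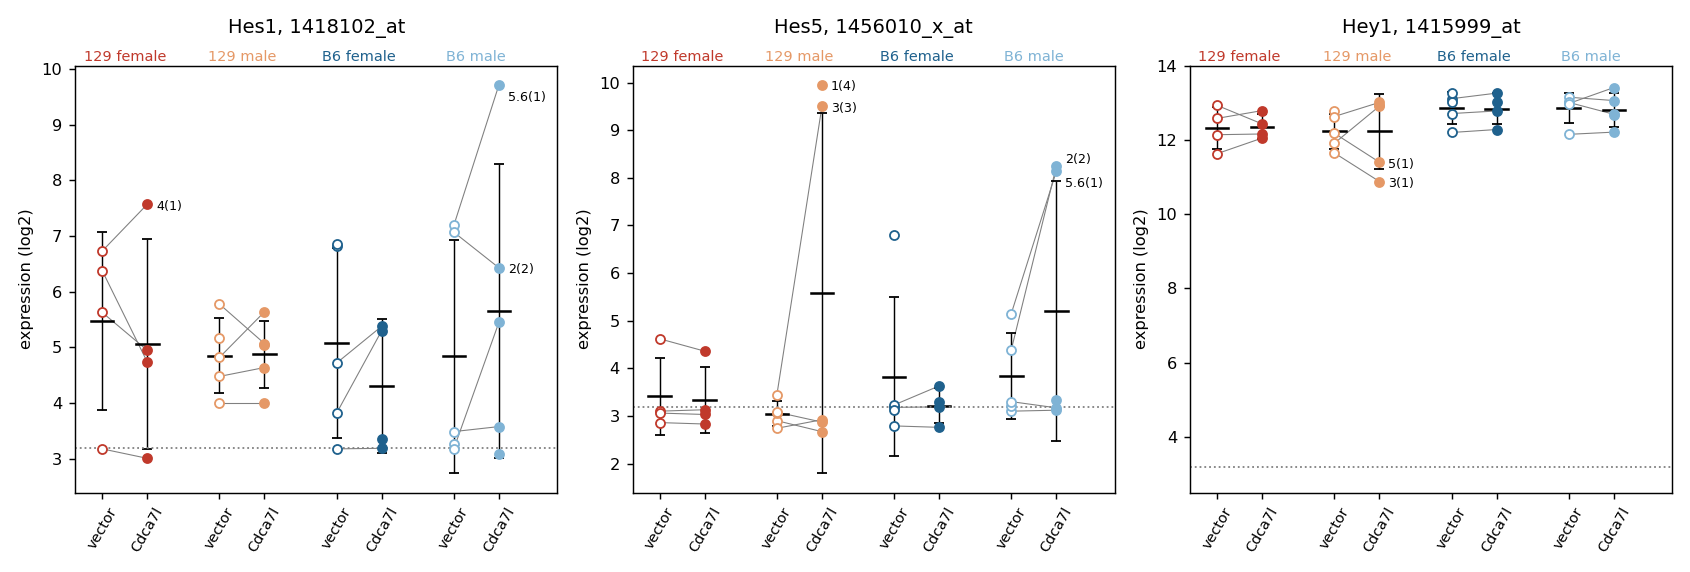
Hes1, Hes5 and Hey1 (log2) on each of the 37 arrays, drawn as for Notch3, with labels for clones named in the text. Hes5 stays near the background of 3.19 (dotted line) on most arrays and reaches 8.14 to 9.95 on 4 of them, all male and all with Cdca7l.

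Hey1, a target high in cultured astrocytes, was lower in 129. Its lowest, median and highest values were 11.63, 12.30 and 12.93 in 129 females, 10.88, 12.41 and 13.01 in 129 males, 12.20, 13.02 and 13.26 in B6 females, and 12.15, 12.99 and 13.41 in B6 males. The difference was -0.56 ± 0.182 (SE), 1.47-fold (limma adjusted p = 0.0246), with 17 of 18 arrays of 129 below the B6 median and overlapping ranges. The lowest arrays were those of 129 male clones 3(1), at 10.88 with Cdca7l and 11.65 with vector, and 5(1), at 11.40 with Cdca7l, and 129 female vector 4(1), at 11.63. The call was lost without both arrays of clone 3(1) (-0.44, adjusted p = 0.0567), 5(1) (-0.50, 0.0516), 129 female 4(1) (-0.47, 0.0781) or 2(1) (-0.52, 0.0596), or B6 female 4(5) (-0.51, 0.0594), and with a random replicate block (0.0559) or median centring (0.0910).

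Hes1 varied from array to array more than between groups. It was highest in B6 male clone 5.6(1), at 9.71 with Cdca7l and 7.19 with vector. In 129 female clone 4(1) it was 7.57 and 6.73, and in B6 male clone 2(2) it was 6.43 and 7.07. At the other end, 129 female clone 1(3) had 3.01 and 3.18 and B6 female clone 3(3) 3.19 and 3.18. Group ranges were 3.01 to 7.57 in 129 females, 4.01 to 5.78 in 129 males, 3.18 to 6.86 in B6 females and 3.09 to 9.71 in B6 males, all overlapping. Values of the same clone label with either plasmid went together (r = 0.757 over 15 labels, a description), as they did for Notch3 by 1421965_s_at (0.840), Rbpj by 1454896_at (0.766), Hey1 (0.727) and Hes5 (0.695). The lowest r was 0.455, for Rbpj by 1418114_at, and Notch2 had 0.479. These r values include differences between strain and sex groups. Around the strain and sex means r was 0.795 for Hes1 and 0.757 for Notch3 by 1421965_s_at. It was 0.212 for Notch3 by 1421964_at and 0.00135 for Notch2.

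Hes5, a target with the separate cores shown above, was near background on most arrays and high on few. In 129 males with Cdca7l it was 9.95 in clone 1(4) and 9.50 in 3(3), and 2.67, 2.92 and 2.87 in the other 3. In B6 males, clone 5.6(1) had 8.14 with Cdca7l and 5.15 with vector, and clone 2(2) had 8.24 and 4.39. Clone 3(3) of 129 males had 3.44 with vector, and clone 1(4) has no vector array. The only other array above 5 was B6 female vector 5.1(1), the array without Xist, at 6.80. The second probe set, 1423146_at, exceeded background on 3 of these arrays, at 6.16 in 129 male Cdca7l 1(4), 4.66 in 3(3) and 5.14 in B6 male Cdca7l 2(2). The difference in 129 males, 2.53, rests on the 2 high arrays and did not pass.

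Other pathway genes, taken from lists by role, did not pass in the averaged Cdca7l comparison: 0 of 4 other receptors and ligands, 0 of 8 secretases and other proteases, 0 of 4 glycosyltransferases, 0 of 9 genes of the nuclear complex and corepressors, 0 of 13 of trafficking and turnover, and 0 of 4 other targets. Along strain, where 26.9% of the 12139 genes with a tested probe set passed, 2 of the 8 protease genes did so, and both were lower in 129: the γ-secretase subunits Psen2 (-0.80 ± 0.179, limma adjusted p = 0.00154) and Aph1b (-1.04 ± 0.236, 0.00184). Of the 4 glycosyltransferases, Poglut1, which adds glucose to the receptor's EGF repeats, was lower (-0.44 ± 0.109, limma adjusted p = 0.00385), and Lfng lay at -0.37 ± 0.236 without passing. Of the 4 other receptors and ligands, Dlk1, a ligand-like inhibitor, was lower (-2.44 ± 0.719, limma adjusted p = 0.0133), and Dlk2 lay at 0.44 ± 0.174 (0.0606).

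Among the nuclear genes 1 of 9 passed, the coactivator Maml1, which was higher in 129 (0.35 ± 0.121, limma adjusted p = 0.0333), and Kat2b lay at -0.38 ± 0.230. In trafficking and turnover, Dtx2 was higher (0.70 ± 0.206) and Dtx4 (-0.47 ± 0.157) and Sel1l (-0.23 ± 0.0596) were lower, while Dtx1 (-1.53 ± 0.589, limma adjusted p = 0.0537) and Neurl1b (-0.92 ± 0.407) did not pass. Of the other targets, Nrarp, a feedback inhibitor of the pathway, was lower (-1.29 ± 0.461, limma adjusted p = 0.0394) and Hes6, a HES family member that opposes HES1, was higher (0.62 ± 0.126, 0.000615). Of 5 tested genes listed with the proneural factors, Insm1 alone passed, at 1.66 ± 0.441 (limma adjusted p = 0.00678). Of 12 progenitor and glial genes, Sox9 (-0.77 ± 0.202), Id2 (-0.33 ± 0.0894) and Id4 (-0.45 ± 0.125) were lower and 0 were higher. The median differences of these lists were 0.11 for other receptors and ligands, -0.18 for proteases, -0.30 for glycosyltransferases, -0.04 for nuclear genes, -0.22 for trafficking, -0.05 for other targets, -0.01 for proneural factors and -0.27 for progenitor and glial genes, beside -0.02 over all genes.

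In 129 females against 129 males, 8.6% of the 12139 genes with a tested probe set passed. Insm1 was higher by 3.10 ± 0.633 (8.60-fold, limma adjusted p = 0.00531). Pofut1, which adds the O-fucose that Fringe enzymes extend, was lower (-0.70 ± 0.146, limma adjusted p = 0.00624), as were Sel1l (-0.43 ± 0.0854), Aak1 (-0.45 ± 0.125), Hes6 (-0.65 ± 0.181) and Pax6 (-0.76 ± 0.229). Dlk2 was higher (0.82 ± 0.249). Of 4 tested glycosyltransferases 1 was called lower, of 4 other receptors and ligands 1 higher, and of 8 proteases 0 were called. In females, 129 against B6 had 19.3% of all genes called, and among the pathway genes lower calls for Psen2 (-1.22 ± 0.264), Aph1b (-1.22 ± 0.348), Poglut1 (-0.57 ± 0.161), Pofut1 (-0.61 ± 0.150), Dlk1 (-3.07 ± 1.06), Dtx4 (-0.66 ± 0.231), Sel1l (-0.44 ± 0.0878) and Sox9 (-0.90 ± 0.298). Neurl1b, a ligand-directed ubiquitin ligase, passed there at -1.77 ± 0.600 (limma adjusted p = 0.0398). Higher calls were those of Dlk2 (0.83 ± 0.256), Maml1 (0.56 ± 0.178), Dtx2 (0.89 ± 0.304) and Insm1 (3.24 ± 0.650). Of the 8 tested proteases 2 were called lower there and 0 higher, and of 4 other receptors and ligands 1 lower and 1 higher. Whether the pathway lists differ from the 19.3% of all genes was not tested. Both female comparisons share the 129 female arrays. The mean of the proneural list ran from 4.64 to 5.61 in 129 females (SD 0.386) and reached at most 5.01 in the other strain and sex groups. Fits with arrays or clone labels left out were not followed for these pathway genes. Whether a few 129 female clones carry their calls was not tested.

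Cell type markers also passed along strain, and their counts stand beside the 26.9% of all genes. Of the 10 astrocyte markers 4 were lower in 129 and 0 higher, and of 9 tested fibroblast and meningeal markers 5 were higher and 0 lower. Of 9 proliferation genes 2 were higher and 0 lower, a share below that of all genes. Of 6 neuron genes 1 was higher and 3 lower, of 5 oligodendrocyte genes 0 and 2, of 8 ependymal and choroid genes 1 and 3, of 2 endothelial genes 1 and 0, and of 7 microglia genes 0 and 0. Col3a1 differed by 5.43 ± 0.881 and Aqp4 by -0.93 ± 0.227 (limma adjusted p = 3.6e-05 and 0.00361). Their part in the strain differences of the Notch genes was not tested.

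The genes whose values followed each member most closely, by Pearson r over the 37 arrays and 12131 other genes, are given as descriptions. They were Igdcc4 (0.955), Negr1 and Lix1 for Notch3, Slc4a4 (0.919), Ank2 and Pdcd4 for Notch2, and Adamts9 (0.856), Exoc3 and Rufy3 for Notch1. For Jag1 they were Cyfip2 (0.847), Epha4 and Sgk3, and for Rbpj Tgfbr3 (0.842), Il33 and Svep1. For the targets they were Arhgef26 (0.892), Atp1b1 and Ppargc1a with Hey1, Ctbp1 (0.786), Csrnp1 and Dusp1 with Hes1, and Nwd1 (0.852), 1700109H08Rik and Fosb with Hes5. The points share strain, sex and clone label.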

How the data were processed

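The deposited table holds log2 expression values that the authors made with GCRMA and Partek 6.5, per the submitters' processing notes. The sources used here do not state how arrays were grouped for normalization. Members and gene lists were chosen with earlier results of these data known. Every probe set with 1 gene symbol that names a member was used, and the text leads with that of the highest mean per gene. Other pathway genes are named if called, or as 1 of the 2 largest strain differences of their list, and likeness names the 3 genes of highest r. Symbols came from the platform annotation, of which 34754 of 34958 matched GRCm38.p6 by Entrez ID.

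Probe sets above the table median on 4 or more arrays were tested: 25579, with 64 control probe sets left out. All 37 arrays entered 1 fit of 8 group means in limma 3.58.1 (R 4.3.3, 29 residual degrees of freedom), with Benjamini-Hochberg adjustment over all 25579 in each of 14 comparisons. The fit was tested on simulated data. Array intensities carry no read depth, and precision depends on how many arrays a group has.

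Arrays of 1 clone label were checked for shared deviations from their group means. Each pair exceeded 0.1 in B6 females (0.432 to 0.775) and B6 males (0.376 to 0.572), which met the criterion for pairs. In 129 females 1 pair was at 0.061 and the others at 0.416 to 0.716, and in 129 males 1 was at -0.0887 and the others at 0.472 to 0.623, which did not meet it. The main fit has no pairs, and the replicate blocks were alternatives over all labels. Alternatives covered the variance prior, the filter, normalization, array weights, replicate blocks, 1 probe set per gene, the compared groups alone, and arrays left out. Leaving out both arrays of a clone label, leaving out the 2 arrays that stood apart, and fitting each plasmid alone were chosen after seeing the data. Promoters of Hes1 and Hey1 were not analysed here.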

Additional observations from a re-analysis of the deposited data

Results flagged for a closer look

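In 11 of 104 sets of 1 probe set and 1 group, a single array lay far from the others of its group; chance alone flags about 1 in 20 such sets, about 5.2 here. Notch2 was lowest on B6 male vector 4(3), at 12.84 where the others had 13.43 to 13.62, and Hey1 was lowest on the same array, at 12.15 (others 12.98 to 13.15). Notch3 on 129 male vector 3(3) was low at both probe sets, with 10.55 (others 11.28 to 11.49) and 8.76 (others 9.76 to 10.10). On 129 male Cdca7l 3(2), Notch3 by 1421964_at was high at 10.03 (others 9.33 to 9.51) and Jag1 by 1421106_at was high at 10.97 (others 8.47 to 9.06). Jag1 by 1421106_at was low on 129 male vector 3(1), at 8.45 (others 10.18 to 10.48).

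Hes5 was high on 129 female vector 1(3), at 4.62 (others 2.86 to 3.10), and on B6 female vector 5.1(1), at 6.80 (others 2.79 to 3.23). Rbpj by 1448957_at was low on B6 female Cdca7l 6(3), at 8.82 (others 10.20 to 10.43). Rbpj by 1418114_at was low on 129 female vector 1(3), at 4.63 (others 9.17 to 9.74). The last 2 named vector arrays are those that stood apart in Xist or in the upper quartile.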

How the results depend on the processing

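The 0 calls with Cdca7l held in each of 438 combinations of comparison and alternative other than array weights, which called 1 member in 129 males. Array weights also called 3 by sex averaged, 7 of 129 minus B6 in females and 4 in the strain by sex interaction, with 25.2%, 45.3% and 24.3% of all probe sets called there, and 0.383% in 129 males. In 129 males minus B6 males 1 was called after quantile normalization, median centring or removal of the 2 arrays that stood apart. In 129 females minus males 1 was called with centring, a random replicate block, 1 probe set per gene, the groups compared alone, or vector arrays alone, and 0 with Cdca7l arrays alone. The averaged strain comparison had 2 calls in vector arrays alone and 0 in Cdca7l arrays alone, as had females in Cdca7l arrays alone (0); these fits hold about 1 of every 2 arrays. With arrays or clone labels left out, counts ran from 1 to 3 for sex in 129, 0 to 2 for sex averaged, 0 to 1 for 129 minus B6 in males and 0 to 1 for the interaction.

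Signs turned for differences that had not passed. Notch3 by sex in B6 at 1421964_at was -0.01 after quantile normalization, -0.03 centred, -0.02 with a random replicate block and -0.24 in vector arrays alone (-0.28 to 0.20 with arrays left out), and at 1421965_s_at 0.10 with array weights (-0.09 to 0.03). With Cdca7l, Notch1 by 1418634_at was 0.00 with array weights, Hey1 was 0.03 with a fixed replicate block, 0.00 with a random one and 0.02 without the 2 arrays (-0.07 to 0.07), and Hes1 was 0.36 and 0.06 with these blocks (-0.34 to 0.08). By strain, Hes5 was 0.14 with array weights and 0.25 in Cdca7l arrays alone (-0.45 to 0.09), and Hes1 was 0.00 in Cdca7l arrays alone (-0.21 to 0.50). A fixed replicate block could not be fitted for sex or strain, since no label spans them. The cause of these shifts was not tested. The fit of only the groups compared applies to single strains or sexes.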
